A study of Mus musculus with 6 samples.

Results

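The GIMAP genes encode a family of GTPases of the immunity-associated proteins, and 8 of them, Gimap1, Gimap3, Gimap4, Gimap5, Gimap6, Gimap7, Gimap8 and Gimap9, were followed here in sorted DN2 thymocytes that lacked E2A. The members were every probe set that the array annotation assigns to only 1 of these genes, which gave 11 of the 45037 probe sets tested, or 8 of 18193 genes, and 0 probe sets named a member together with another gene. Gimap4, Gimap6 and Gimap7 had 2 probe sets each and the other 5 genes had 1. The family was chosen by its log2 intensities in E2A-deficient against wild-type cells, which were already known, so its values in that comparison are given as a description. Counts of members past a threshold of the fit over all probe sets stand beside the share of all probe sets past it, and nothing is read from them.

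The study set E2A-deficient DN2 cells of fetal mouse thymus against wild-type DN2 cells, with 3 arrays per group, all on the FVB background. DN2 cells are early thymocytes that bear neither CD4 nor CD8 and are about to commit to the T lineage. E2A, the product of Tcf3, is an E protein that binds DNA at E-box motifs. The labels name neither the mutant allele nor the age of the fetuses, and do not say whether each array came from separate animals, so a p-value here reflects only how far these arrays scattered. Total RNA of the sorted cells was amplified, labelled with biotin and hybridised to Affymetrix mouse expression arrays.

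GIMAP proteins share an AIG1-type GTP-binding domain, and several are anchored to membranes of the lysosome, mitochondrion or endoplasmic reticulum. They are known above all from lymphocytes, where loss of Gimap5 or Gimap1 costs mature T cells their survival, and their level is known to change as thymocytes mature. In the mouse the 8 genes lie side by side on chromosome 6, in the order Gimap8, Gimap9, Gimap4, Gimap6, Gimap7, Gimap1, Gimap5 and Gimap3, with no other measured gene between them in the RefSeq table of assembly GRCm38.p6.

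The sequences just upstream of 4 members are shown because E2A binds E-boxes, whose letters are CANNTG, and because these 4 span the range of differences given below. Each is the 250 bases before the RefSeq start, 5' to 3' (GRCm38.p6), with every E-box in capitals. They cover chr6:48646984-48647233 on the plus strand for Gimap8, chr6:48684328-48684577 on the plus strand for Gimap4, chr6:48675885-48676134 on the plus strand for Gimap9 and chr6:48770852-48771101 on the minus strand for Gimap3.
Gimap8: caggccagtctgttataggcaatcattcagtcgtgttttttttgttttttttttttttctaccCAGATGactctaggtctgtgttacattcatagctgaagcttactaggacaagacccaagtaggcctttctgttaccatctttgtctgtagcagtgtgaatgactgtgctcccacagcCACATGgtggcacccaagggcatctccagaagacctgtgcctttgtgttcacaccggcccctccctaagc
Gimap4: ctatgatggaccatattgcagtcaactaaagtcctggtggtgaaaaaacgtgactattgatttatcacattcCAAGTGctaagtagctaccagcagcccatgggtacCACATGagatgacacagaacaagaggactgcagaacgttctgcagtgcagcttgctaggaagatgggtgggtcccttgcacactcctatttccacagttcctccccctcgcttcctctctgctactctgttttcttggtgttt
Gimap9: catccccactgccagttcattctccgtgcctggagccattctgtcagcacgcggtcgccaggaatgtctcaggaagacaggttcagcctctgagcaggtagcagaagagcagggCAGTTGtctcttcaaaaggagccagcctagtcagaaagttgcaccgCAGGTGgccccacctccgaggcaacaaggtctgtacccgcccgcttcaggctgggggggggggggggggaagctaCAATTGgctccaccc
Gimap3: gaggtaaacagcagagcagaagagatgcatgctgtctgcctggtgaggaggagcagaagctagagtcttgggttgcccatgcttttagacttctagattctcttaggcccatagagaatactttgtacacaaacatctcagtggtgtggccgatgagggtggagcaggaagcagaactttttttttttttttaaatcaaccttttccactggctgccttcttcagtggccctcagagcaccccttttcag

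All 8 genes matched the promoter table, which held 9 windows for them because Gimap8 has 2 starts. The 2 windows of Gimap8 overlap and share the same CACATG, so they are not independent. The motif CANNTG, which reads the same class on either strand, stood in 7 of the 9 windows, against 66.2% of all 32851 windows of that length. CAGGTG, searched on both strands and a special case of CANNTG, stood in 1 window, that of Gimap9, against 17.2% of all windows. CAGCTG, also contained in CANNTG, stood in 0 of the 9 windows, against 13.0% of all. The windows of Gimap1 and Gimap3 held no CANNTG. A match describes letters only, and binding was not measured here.

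Array medians lay between 77.4 and 79.0, and log2 values of arrays of 1 group correlated across probe sets at 0.984 to 0.990. Tcf3 itself had intensities of 236, 229 and 281 in E2A-deficient cells, against 477, 421 and 414 in wild-type cells (log2 difference -0.81, SE 0.0952, limma adjusted p = 0.00864). Other probe sets of Tcf3 gave log2 differences of -0.49 (limma adjusted p = 0.0292) and -0.24 (0.0926, not passing). The labels do not place these probe sets inside or outside the deleted part, and with the beta-actin covariate described below the adjusted p of the first was 0.150. The DN2 markers Kit, Il2ra, Cd44, Il7r and Thy1 had means in the brightest part of the array, beyond its upper quartile, while Ptcra did not. Thy1, a surface protein of thymocytes, fell to 146 ± 12.3 in E2A-deficient cells, against 370 ± 53.9 in wild-type cells (SD, n = 3; log2 difference -1.32, limma adjusted p = 0.00257). The other DN2 markers did not pass, with Kit (0.26), Il2ra (0.13) and Cd44 (0.04) higher and Il7r (-0.37) and Ptcra (-0.14) lower. Of the 6 markers 1 fell, against 0.901% of all genes, and 0 rose, against 1.92%. An unadjusted p under 0.05 was found for 2 of them, against 16.2% of all genes. Wild-type arrays differed in the X-inactivation transcript Xist, at 3055, 4456 and 58.7, against 1901, 1247 and 2154 in E2A-deficient cells. The Y-linked gene Eif2s3y had 204, 58.0 and 343 in wild-type cells, against 230, 339 and 208 in E2A-deficient cells. Every E2A-deficient array and wild-type replicate 1 carried signal for both genes, so these held cells of both sexes and of more than 1 animal. Wild-type replicate 2 was low for Eif2s3y and replicate 3 for Xist. The balance of male and female cells thus varied between arrays.

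Among the GIMAP genes Gimap8 and, by 1 of its probe sets, Gimap4 lay furthest above their wild-type levels in E2A-deficient cells, and the groups overlapped in 7 of the 11 probe sets. The difference, E2A-deficient minus wild type on log2(intensity + 1), was above 0 for 10 of the 11 probe sets, against 51.8% of all probe sets, and its median was 0.32, against 0.0039 over all probe sets. In 4 of the 11 all E2A-deficient arrays lay above all wild-type arrays, against 10.1% of all probe sets, and in 0 they lay below, against 6.79%. In the limma fit over all probe sets 1 of the 11, that of Gimap8, passed a Benjamini-Hochberg adjusted p of 0.05 upward, against 1.21% of all probe sets, and 0 passed downward, against 0.58% (1.79% of all probe sets passed in either direction). The call of Gimap8 was absent without wild-type replicate 2 or 3 or without E2A-deficient replicate 1, and after adding the beta-actin covariate, so that 0 were then called, while without E2A-deficient replicate 2 a probe set of Gimap4 was called as well, which made 2. Because the samples are sorted populations in bulk, a change in the number of cells that carry a transcript and a change of RNA per cell cannot be told apart.

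**Figure D1:**
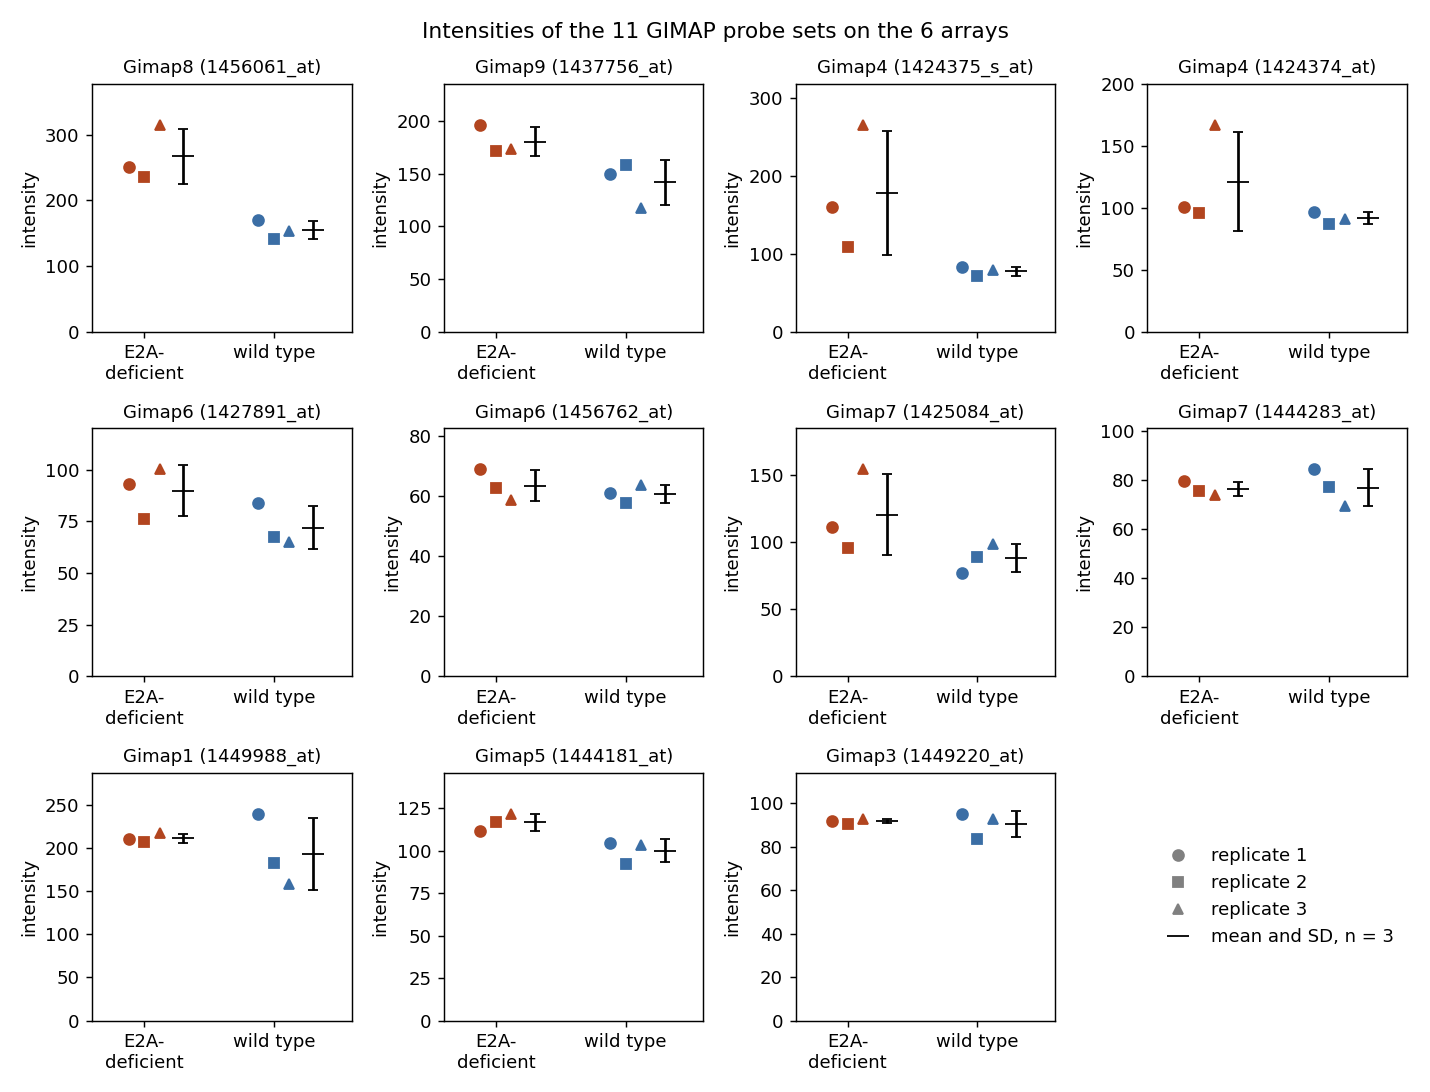
Intensity (linear, vertical axis) of the 11 GIMAP probe sets, in chromosome order of their genes, in E2A-deficient cells (left of each panel) and wild-type cells (right), with 1 marker shape per replicate number and a bar for mean and SD of 3 arrays. Gimap8, Gimap9, Gimap5 and the probe set 1424375_s_at of Gimap4 show no overlap between the groups, while the other 7 probe sets overlap.

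Gimap8, the family member with several GTP-binding domains in tandem, opens the cluster. Its intensities were 250, 236 and 315 in E2A-deficient cells, against 170, 142 and 153 in wild-type cells. The lowest E2A-deficient array stood well clear of the highest wild-type array. The means were 267 ± 42.1 in E2A-deficient cells and 155 ± 14.4 in wild-type cells (SD, n = 3), a log2 difference of 0.77 (SE 0.119), or 1.71-fold. Over 18 alternative settings the difference stayed between 0.65, without E2A-deficient replicate 3, and 0.91, with the beta-actin covariate.

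Gimap4, which has been tied to the timing of lymphocyte death, gave the largest difference of the family and the widest spread. Its probe set 1424375_s_at had intensities of 160, 109 and 266 in E2A-deficient cells, against 83.1, 71.6 and 78.6 in wild-type cells. All 3 E2A-deficient arrays were higher, but replicate 3 carried far more signal than replicate 2, while the wild-type arrays were close together. The means were 178 ± 79.8 in E2A-deficient cells and 77.7 ± 5.78 in wild-type cells (SD, n = 3; log2 difference 1.09, SE 0.281). Without E2A-deficient replicate 3 the log2 difference was 0.76 and without replicate 2 it was 1.40. This probe set carries the suffix that Affymetrix gives to sets shared between transcripts.

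The other probe set of Gimap4, 1424374_at, carries no such suffix and showed less. Its intensities were 101, 95.7 and 167 in E2A-deficient cells, against 96.6, 86.6 and 91.1 in wild-type cells. Here only replicate 3 of the E2A-deficient arrays stood out, and the groups overlapped. The log2 difference was 0.36 (SE 0.196), and without E2A-deficient replicate 3 it was 0.10. The probe sets of this gene therefore shared the high reading of replicate 3 but not the size of the difference between genotypes.

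Gimap9 had intensities of 196, 171 and 173 in E2A-deficient cells, against 149, 158 and 118 in wild-type cells. The groups did not overlap, although the lowest E2A-deficient and the highest wild-type array were near each other. The log2 difference was 0.35 (SE 0.117), and it was 0.17 with the beta-actin covariate.

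Gimap5, the lysosomal member whose loss causes lymphopenia in rats and mice, had intensities of 111, 117 and 121 in E2A-deficient cells, against 104, 91.9 and 103 in wild-type cells. The groups did not overlap, but the gap between them was small. The log2 difference was 0.22 (SE 0.0698), or 1.17-fold.

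Gimap7 and Gimap6 each gave a higher mean with overlapping groups. Gimap7 (1425084_at) had intensities of 112, 95.6 and 154 in E2A-deficient cells, against 77.1, 89.1 and 98.5 in wild-type cells, a log2 difference of 0.43 (SE 0.174). Gimap6 (1427891_at), whose protein binds autophagy proteins of the ATG8 family, had intensities of 93.3, 76.3 and 100 in E2A-deficient cells, against 83.7, 67.4 and 64.8 in wild-type cells, a log2 difference of 0.32 (SE 0.129). In both genes E2A-deficient replicate 3 was highest and replicate 2 lay inside the wild-type range. The other probe sets of these genes were below the median of all probe sets, with differences of -0.0076 for Gimap7 (1444283_at) and 0.06 for Gimap6 (1456762_at). With the mean of both probe sets the difference was 0.21 for Gimap7 and 0.19 for Gimap6, and for Gimap4 it was 0.72.

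Gimap1 and Gimap3 differed least. Gimap1, which mature B and T cells need to survive, had intensities of 211, 207 and 217 in E2A-deficient cells, against 239, 183 and 158 in wild-type cells. The E2A-deficient arrays agreed closely and lay inside the range of the wild-type arrays, which were spread widely (log2 difference 0.15, SE 0.139). Its difference was 0.31 without wild-type replicate 1 and 0.014 without wild-type replicate 3. Gimap3, which has been tied to the inheritance of mitochondrial DNA in the mouse, had intensities of 92.0, 90.7 and 92.8 in E2A-deficient cells, against 95.1, 83.6 and 92.6 in wild-type cells, and the difference of 0.02 (SE 0.0641) was smaller than its error.

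Along the chromosome the differences were not even. Reading each gene by its brightest probe set, the values in cluster order were 0.77 for Gimap8, 0.35 for Gimap9, 1.09 for Gimap4, 0.32 for Gimap6, 0.43 for Gimap7, 0.15 for Gimap1, 0.22 for Gimap5 and 0.02 for Gimap3. By this reading the 3 smallest belonged to the 3 genes at the Gimap3 end. With the mean of the probe sets of each gene that was not so, since Gimap6 (0.19) and Gimap7 (0.21) then lay below Gimap5 (0.22). The order by brightest probe set rests on single probe sets and, for neighbours such as Gimap9, Gimap6 and Gimap7, on differences within 1 SE of each other.

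The 6 measured genes on each side of the cluster show what the surrounding chromosome did in the same cells. None of these 12 genes passed in limma (0 of 12, against 2.83% of all genes read by their brightest probe set), 2 had an unadjusted p under 0.05, against 16.2% of all genes, and their median difference was -0.03, against 0.015 over all genes. Tmem176b, a membrane protein and the nearest measured neighbour beyond Gimap3, had intensities of 459, 456 and 424 in E2A-deficient cells, against 515, 567 and 593 in wild-type cells. It was lower on every E2A-deficient array without passing (log2 difference -0.32, SE 0.0708, limma adjusted p = 0.0880). On the far side Rarres2, which encodes the chemoattractant chemerin, had a difference of -0.14 and a mean near the median of all probe sets. Its groups did not overlap, and it did not pass. Its other probe sets gave 0.00017 and 0.07, with overlapping groups. On that side AI854703, the nearest measured neighbour of Gimap8, had a difference of -0.02. The remaining values were 0.18 for Zfp775, -0.24 for Repin1, 0.02 for Lrrc61, -0.05 for Atp6v0e2, -0.04 for Tmem176a, -0.0086 for Aoc1, -0.05 for Doxl1, 0.0030 for Gpnmb and -0.02 for Malsu1. A further probe set of Repin1, a zinc-finger gene, gave -0.46 with no overlap between the groups, short of the threshold (adjusted p = 0.0650 in limma). The remaining probe sets of Repin1, below the median of all probe sets, gave -0.07 and 0.0038 with overlapping groups. The difference between the cluster and its neighbours was not tested.

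**Figure D2:**
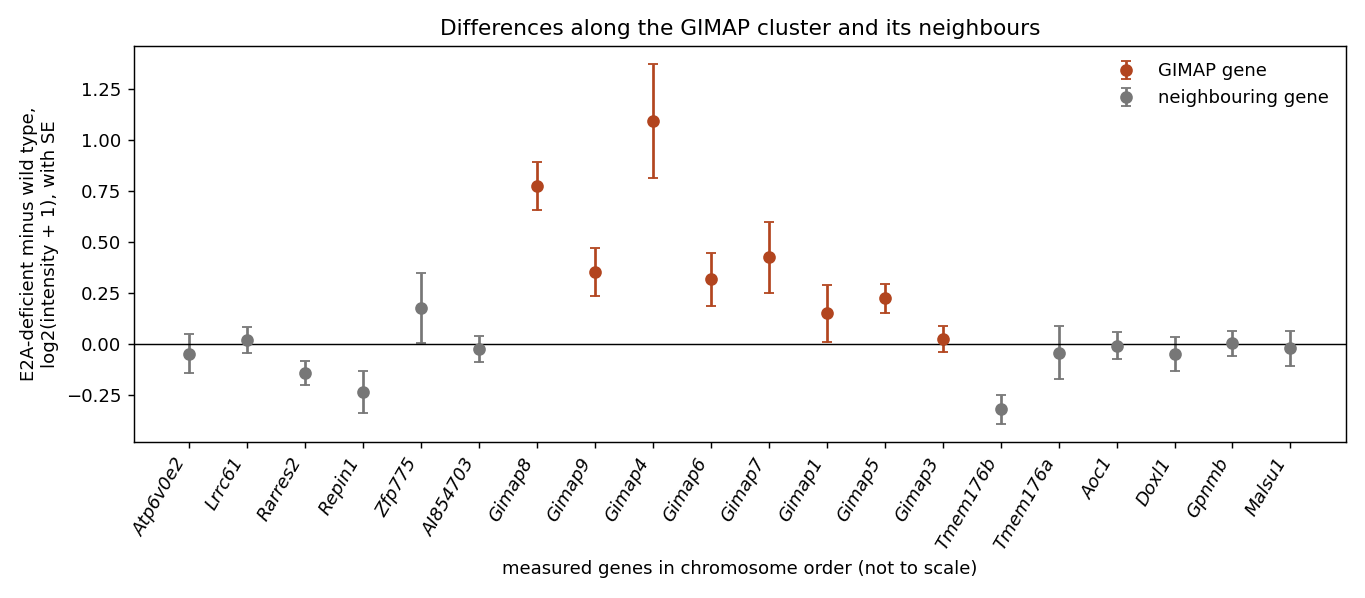
Difference between E2A-deficient and wild-type cells (vertical axis, log2(intensity + 1), with SE of the limma fit, n = 3 arrays per group) for the 8 GIMAP genes and the 6 measured genes on each side, in chromosome order and not to scale. GIMAP differences run between 0.02 and 1.09, and those of the neighbours, each by its brightest probe set, between -0.32 and 0.18.

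Variation within a genotype was compared between the members. Deviations of each array from the mean of its own group, which the difference between genotypes does not enter, had a median Pearson correlation of 0.38 over the 28 pairs of GIMAP genes, with a range from -0.66 to 0.90 over 6 arrays, and 22 of the 28 were above 0. Gimap8 with Gimap4 gave 0.90, Gimap4 with Gimap7 gave 0.84 and Gimap8 with Gimap6 gave 0.81. Gimap9 gave -0.12 with Gimap8, -0.05 with Gimap4 and -0.66 with Gimap5. In E2A-deficient cells 7 of the 8 genes were highest in replicate 3, and Gimap9 was highest in replicate 1. In wild-type cells 7 of the 8 lay above their group mean in replicate 1, and Gimap7 lay below it. Probe sets of the same gene gave 0.94 for Gimap4, -0.12 for Gimap6 and -0.57 for Gimap7. The arrays share their whole RNA, labelling and normalization, so these correlations are a description of 6 arrays and carry no test. No value for pairs of other genes was set beside them.

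**Figure D3:**
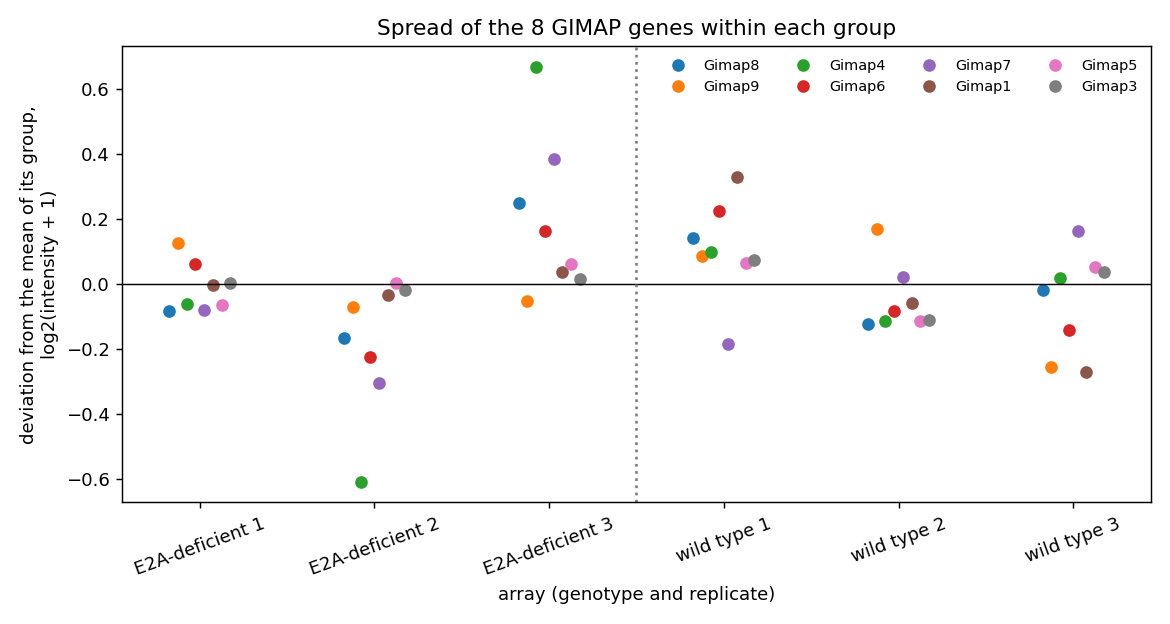
Deviation of each GIMAP gene from the mean of its own group (vertical axis, log2(intensity + 1)) on each of the 6 arrays, E2A-deficient arrays left of the dotted line and wild-type arrays right of it. Gimap4 spans -0.61 to 0.67 among E2A-deficient arrays, and Gimap3 and Gimap1 barely move there.

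The genes most like the family were read from 10024 probe sets of other genes with a mean above the upper quartile. The mean of the 8 centred GIMAP genes was 0.20, 0.03 and 0.40 on the E2A-deficient arrays, against -0.11, -0.26 and -0.26 on the wild-type arrays. The 5 highest Pearson correlations with it over the 6 arrays were those of the ribosomal RNA methyltransferase Mettl5 (0.996), the glycolytic enzyme Pgam1 (0.996), the mitochondrial nuclease Endog (0.995), the membrane-skeleton protein Add3 (0.992) and the Sm-like protein Lsm10 (0.991). For Gimap8, the brightest member, they were Lrba (0.996), Slc25a4, the mitochondrial carrier of ADP and ATP (0.994), G3bp2 (0.994), Ppp2r1a (0.994) and Rrp1 (0.994). The difference between genotypes enters these correlations, and all the named genes were higher in E2A-deficient cells, by log2 differences of 0.18 to 0.59. These are the highest of many candidates over few arrays and describe likeness of pattern only.

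GIMAP proteins have been reported to act with BCL2-family proteins, and 7 of the 8 listed survival and death genes of that family were measured. Of these, 1 rose, against 1.92% of all genes, 0 fell, against 0.901%, and 6 did not pass, with a median difference of 0.25. Bcl2l11, which encodes the death-promoting protein BIM, had intensities of 344, 303 and 293 in E2A-deficient cells, against 227, 208 and 209 in wild-type cells (log2 difference 0.54, SE 0.0768, limma adjusted p = 0.0197). The groups were well apart, but the call was absent without wild-type replicate 2 (adjusted p = 0.0731) or 3 (0.0664), without E2A-deficient replicate 2 (0.0599) and with the beta-actin covariate (0.204). Its 4 other probe sets had differences of 0.10, 0.09, 0.11 and 0.15 and did not pass. Bcl2 itself, the survival protein, had a difference of -0.17, Bcl2l1 of 0.25 and Mcl1 of 0.23. Bad gave 0.37, Bid 0.27 and Bak1 -0.08, and none of these genes passed. Of the 7 genes 4 had an unadjusted p under 0.05, against 16.2% of all genes.

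Of the ATG8-family proteins, to which Gimap6 binds, and the kinase gene Gsk3b, 6 were measured and 0 passed in limma, against 2.83% of all genes. An unadjusted p under 0.05 was found for 4 of them, against 16.2% of all genes, and the median was 0.13. Gabarap had intensities of 301, 337 and 376 in E2A-deficient cells, against 239, 233 and 270 in wild-type cells (log2 difference 0.45, limma adjusted p = 0.0834). Gabarapl1 had intensities of 158, 139 and 148 in E2A-deficient cells, against 223, 182 and 199 in wild-type cells (-0.43, limma adjusted p = 0.0677). These relatives lay on opposite sides of 0, each without overlap between the groups. Gabarapl1 passed when 1 probe set per gene was tested (limma adjusted p = 0.0476). Map1lc3a had a difference of 0.22 and did not pass.

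Genes of naive T-cell quiescence and trafficking were next, and among 10 measured 1 rose, against 1.92% of all genes, 0 fell, against 0.901%, and 9 missed the threshold, with a median difference of 0.15. The gene that rose was Klf2, a transcription factor that keeps T cells quiescent, at 158, 168 and 166 in E2A-deficient cells, against 98.1, 84.8 and 101 in wild-type cells (log2 difference 0.79, SE 0.0768, limma adjusted p = 0.00401). It passed under all 17 alternatives run for it (limma adjusted p from 0.00127 to 0.0263). Its direct target S1pr1, a receptor for exit from the thymus, had a difference of 0.22 and did not pass. The chemokine receptor Ccr7 (0.45) and the interleukin receptor Il7r (-0.37) did not pass either. With an intensity trend and robust variances 2 genes of this list were called higher, against 1 in the main fit. Of the 10 genes 5 had an unadjusted p under 0.05, against 16.2% of all genes.

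The interferon-inducible GTPases are other GTP-binding families of immune cells, encoded elsewhere in the genome. Arrays measured 11 of their 17 listed genes, with 0 higher, against 1.92% of all genes, 1 lower, against 0.901%, and 10 short of the threshold, with a median difference of -0.16, against 0.34 for the 8 GIMAP genes by brightest probe set. Gbp7, a guanylate-binding protein, had intensities of 372, 262 and 302 in E2A-deficient cells, against 560, 480 and 487 in wild-type cells (log2 difference -0.72, SE 0.130, limma adjusted p = 0.0446), and its other probe set gave -0.47 (limma adjusted p = 0.0452). The call of the first was absent without any 1 wild-type array (adjusted p of 0.106, 0.104 and 0.106), without E2A-deficient replicate 2 (0.0950) or 3 (0.157), with median centring (0.0501), with a pseudocount of 16 (0.0550) and with the beta-actin covariate (0.382). Of the 11 genes 5 had an unadjusted p under 0.05, against 16.2% of all genes. The difference between these families and the GIMAP family was not tested.

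**Figure D4:**
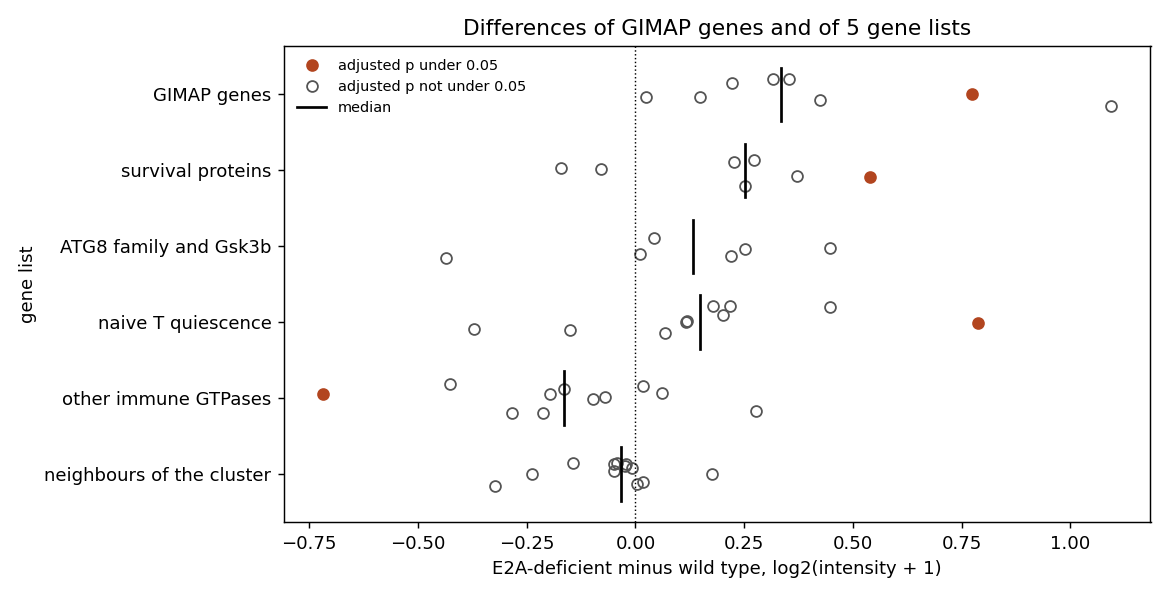
Difference between E2A-deficient and wild-type cells (horizontal axis, log2(intensity + 1)) for each measured gene of the GIMAP family and of 5 gene lists (rows), with filled points for genes that passed a limma adjusted p of 0.05 and a line at the median. The GIMAP median is 0.34, and those of the lists run between -0.16 and 0.25.

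Markers of cells that could accompany the sorted population were read beside these values. Over all genes by brightest probe set, 2.83% passed in limma, 1.92% upward and 0.901% downward, and 16.2% had an unadjusted p under 0.05. The counts below stand beside these shares. Summed intensities of 8 measured markers of later thymocytes and alpha-beta T cells were 762 to 813 on E2A-deficient arrays and 767 to 839 on wild-type arrays, with Cd4, Cd8a and Cd8b1 at means of 66.6 to 90.2 in E2A-deficient cells and 68.9 to 86.6 in wild-type cells, close to the array medians. Of that list 1 gene, Cd5, fell (-0.70, limma adjusted p = 0.0261), a call absent without wild-type replicate 1 (0.0705) or 3 (0.0741), without E2A-deficient replicate 1 (0.0742), 2 (0.0896) or 3 (0.106), and with the beta-actin covariate (0.167). On the same list 3 genes had an unadjusted p under 0.05, against 16.2% of all genes. Besides Cd5 these were Ccr7 (0.45) and S1pr1 (0.22), higher on every E2A-deficient array without passing. With an intensity trend and robust variances 2 genes of the list were called, 1 higher and 1 lower. Endothelial markers summed to 838 to 900 on E2A-deficient arrays and 846 to 940 on wild-type arrays, and 0 of 10 passed in limma or had an unadjusted p under 0.05. Markers of B cells summed to 450 to 470 on E2A-deficient arrays and 452 to 494 on wild-type arrays, and 0 of 6 passed or had an unadjusted p under 0.05. Markers of NK cells summed to 845 to 909 on E2A-deficient arrays and 943 to 1093 on wild-type arrays, with 0 of 6 passing, and 1 with an unadjusted p under 0.05, Gzma (-0.36), which passed after quantile normalization (limma adjusted p = 0.0292) and with wild-type replicate 3 left out (0.0483). Of 8 myeloid markers, summing to 1482 to 1732 on E2A-deficient arrays and 1361 to 1613 on wild-type arrays, 1 fell, Lyz2 (-0.50, limma adjusted p = 0.0222), which lost its call without any 1 of the wild-type arrays (0.0637, 0.0649 and 0.0716), without E2A-deficient replicate 1 (0.0775) or 2 (0.0822), with a replicate block (0.0579) and with the beta-actin covariate (0.263). Of the myeloid list 2 had an unadjusted p under 0.05, against 16.2% of all genes. Besides Lyz2 this was Cd68 (0.18), higher on every E2A-deficient array without passing. Single bright genes carried much of the NK sum, with Gzma at 511 in E2A-deficient cells and 658 in wild-type cells on average, and of the myeloid sum, with Mpo at 1036 in E2A-deficient cells and 907 in wild-type cells. The NK sum was lower on every E2A-deficient array than on any wild-type array, and the sums of the other marker lists overlapped between the groups. Their part in the GIMAP differences was not tested.

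A control ratio, the only sign of RNA quality read here, moved partly with genotype. The log2 ratio of the 5' to the 3' beta-actin control probe sets was -2.60, -2.65 and -2.74 on the E2A-deficient arrays, against -3.26, -2.63 and -3.35 on the wild-type arrays. With this ratio as a covariate the differences were 0.91 for Gimap8, 1.28 for the brightest probe set of Gimap4 and 0.34 for Gimap5, against 0.77, 1.09 and 0.22 without it, and 0.17 for Gimap9, against 0.35 without it. Its part in the differences was not tested further.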

How the data were processed

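The data are 6 Affymetrix mouse expression arrays. The authors deposited 1 linear intensity per probe set and array. RMA is named in the submitters' processing notes. Its version, the return to a linear scale and any further scaling are not given in the sources used here. Lower quartiles of the arrays lay between 62.9 and 64.5, and so high a floor understates the changes of dim genes. Amplification from 3' ends measures transcripts best near that end.

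The 64 Affymetrix controls of 45101 probe sets were left out. Of the 45037 tested, 34945 named 1 gene, 932 several and 9160 none in the array annotation. log2(intensity + 1) was fitted per probe set in limma 3.58.1 (R 4.3.3), two-sided, with Benjamini-Hochberg adjustment over all probe sets and a threshold of 0.05, and no filter on dim probe sets. Fold changes are on that log2 scale. A gene of a list was read by its probe set of the highest mean among 18193 genes. The steps were tested on simulated data. The members and lists were chosen with earlier results of these data known. Named were Tcf3, every member, all measured neighbours, called genes of each list or the 3 with the smallest p, and the 5 genes most like the members. Promoters came from RefSeq (GRCm38.p6). Precision is limited by having 3 arrays per group. Figures were drawn with matplotlib 3.10.9.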

Additional observations from a re-analysis of the deposited data

How the results depend on the processing

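The sign of the difference was the same under all 18 alternatives for Gimap8, Gimap9, Gimap6, Gimap7, Gimap1 and Gimap5 by their brightest probe sets and under all 17 for Gimap4, while Gimap3 went to -0.03 without wild-type replicate 2 and the dim probe sets 1456762_at of Gimap6 and 1444283_at of Gimap7 changed sign in 1 and 3 settings. Of 189 values of members under alternatives, 186 moved by less than 1 SD of the replicates and 3 by more. Those 3 all came with the beta-actin covariate, namely Gimap9 (0.17), Gimap5 (0.34) and Gimap3 (0.12). Several settings, such as the replicate block, the intensity trend and the fits on fewer probe sets, cannot move the difference of a probe set. Where the groups do not overlap, leaving out 1 array cannot change the sign either. These counts of unchanged signs and values are therefore no measure of robustness. Without 1 array at a time, 358 to 563 of all probe sets were called, against 804, 0 to 2 of the GIMAP probe sets, against 1, and 1 to 3 of the 46 list genes, against 3. With the beta-actin ratio the counts were 114, 0 and 1. An intensity trend with robust variances called 5 list genes. Leaving out an array leaves fewer arrays to fit, and the cause of the other changes was not tested. No label says whether the replicate numbers pair the arrays. Same-numbered arrays deviated together with correlations of 0.05, 0.05 and -0.02 across probe sets, against -0.07 to 0.02 for arrays of different numbers. The arrays numbered 1 and those numbered 2 correlated best with each other, and the arrays numbered 3 did not. Values this near 0 cannot decide whether the arrays were paired. The fit with the replicate number as a block called 471 of all probe sets, 1 GIMAP probe set and 3 list genes. Low signal limits the members, of which 9 of 11 probe sets lay above the median of all probe sets and 3 of 8 genes above the upper quartile.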
